A study of Mus musculus with 20 samples.

Results

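C-type lectin receptors are surface proteins of myeloid cells that carry a C-type lectin-like domain and bind sugars, lipids or ligands released by dying cells. The 10 receptors described here, *Clec7a*, *Clec4n*, *Clec4e*, *Clec4d*, *Clec5a*, *Clec4a1*, *Clec4a2*, *Clec4a3*, *Clec12a* and *Clec10a*, were taken by their symbols, and 10 of 10 were found among the 16810 genes measured by RNA-Seq in microglia after spinal cord injury (SCI). Some of these receptors activate the cell. Dectin-1 (*Clec7a*) carries its own tyrosine motif, Dectin-2 (*Clec4n*), Mincle (*Clec4e*) and MCL (*Clec4d*) work through the Fc receptor gamma chain (*Fcer1g*), MDL-1 (*Clec5a*) works through DAP12 (*Tyrobp*) and DAP10 (*Hcst*), and the kinase Syk with the adaptor Card9 passes the signal on. Others hold an inhibitory motif that recruits phosphatases such as SHP-1 (*Ptpn6*), as DCIR (*Clec4a2*) and MICL (*Clec12a*) do, and MGL1 (*Clec10a*) binds galactose-type sugars on macrophages and dendritic cells. In the central nervous system *Clec7a* is known as a gene of activated microglia.

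All 20 libraries came from microglia of adult male CX3CR1+/eGFP mice on a C57BL/6 background, heterozygous for a reporter that places eGFP under the *Cx3cr1* promoter, sorted as eGFP-high cells from a 1 cm piece of thoracic spinal cord. Non-injured (NI) mice gave 3 libraries. Lateral hemisection (HS), which cuts 1 side of the cord, is held by 8 libraries (3 for 72 h, 2 for 1 week, 3 for 2 weeks). Full transection (FT), which cuts the cord completely, is held by 9, with 3 for each of these times. The *Cx3cr1* promoter is also active in monocytes and macrophages, the methods list more mice than there are libraries, and no label says which mice a library holds, so p-values measure the spread between libraries. Values are in CPM as deposited (read counts scaled by 1 factor per library). The columns do not share 1 total, with 777426 to 830481 CPM in NI and 1066750 to 1202190 CPM at 72 h. Depth was 3.87 to 34.1 M reads (mega-reads) per library, at which a single read was worth 0.292 to 0.0330 CPM. In bulk RNA of sorted cells, fewer cells of a type and less RNA per cell cannot be told apart.

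The 10 genes lie in 4 places of the genome (GRCm38, GENCODE vM21). On chromosome 6, *Clec4a1*, *Clec4a3*, *Clec4a2*, *Clec4n*, *Clec4d* and *Clec4e* sit in this order within 368 kb (122921848 to 123289870), the Dectin-2 region, together with *Clec4a4*, *Clec4b1* and *Clec4b2*, which are in the table as well. *Clec12a* and *Clec7a* sit at the ends of the 130.1 kb Dectin-1 region (129342691 to 129472779), with *Clec1b*, *Clec9a* and *Clec1a* between the same limits. *Clec5a* lies apart on chromosome 6 (40574894 to 40585821) and *Clec10a* on chromosome 11 (70156197 to 70170834). The annotation lists *Clec7a* as a polymorphic pseudogene and the other genes as protein coding. No exon of a member overlapped an exon of another annotated gene. Over stretches of 50 bases, *Clec10a* shared 9.02% of its transcript sequence with other genes, mostly with its neighbour *Mgl2* (8.49%), and *Clec4a2* shared 6.69%, mostly with *Clec4a4* (3.85%). A stretch shared in this way does not tell the genes apart, and how reads in it were counted was not examined. *Clec4n* shared 0.686%, *Clec12a* shared 0.402% and the other 6 members shared none.

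The sequence before the start of 3 members is shown because these receptors stand for the main patterns below, with *Clec7a* high at every time after injury, *Clec4e* high at 72 h and *Clec5a* past the test at no time. Each line holds the 150 bases upstream of the start, 5′ to 3′ on the strand of the gene, from RefSeq (GRCm38.p6), where 8 of the 10 members were matched and *Clec4n* and *Clec10a* were not. The windows are chr6:129472780-129472929 for *Clec7a*, chr6:123289872-123290021 for *Clec4e* and chr6:40585806-40585955 for *Clec5a*, all on the minus strand. Capitals mark the core letters GAGGAA of the binding motif of PU.1, the transcription factor of the myeloid lineage, read on either strand (TTCCTC).
Clec7a: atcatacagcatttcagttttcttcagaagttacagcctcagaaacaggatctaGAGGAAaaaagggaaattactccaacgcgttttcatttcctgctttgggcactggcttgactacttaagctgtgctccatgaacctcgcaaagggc
Clec4e: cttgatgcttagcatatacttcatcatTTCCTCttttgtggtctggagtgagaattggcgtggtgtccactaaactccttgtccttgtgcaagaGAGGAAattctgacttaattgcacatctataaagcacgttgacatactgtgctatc
Clec5a: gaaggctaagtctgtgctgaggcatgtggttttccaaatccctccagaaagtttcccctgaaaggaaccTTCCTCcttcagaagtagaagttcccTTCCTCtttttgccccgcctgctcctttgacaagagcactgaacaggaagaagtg
The capitals begin at -96 in *Clec7a*, at -123 and -56 in *Clec4e* and at -81 and -55 in *Clec5a*, counted from the start. In windows of 300 bases (250 before and 50 after the start), the letters were present in at least 1 promoter of 7 of the 8 matched members, all except *Clec4a2*. Counted by promoter, they were in 8 of the 10 promoters of these members and in 28.3% of all 32851 promoters. The AP-1 motif TGANTCA was found in *Clec4a2* and *Clec12a* (7.81% of all promoters) and the C/EBP motif TTGCNNAA in *Clec4e* and *Clec12a* (10.8% of all promoters). The E-box TCANGTGA of the MiT factors (4.18% of all promoters) was in none of the 8 members. A match of letters is a description of the window and not of a bound site.

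*Clec7a* was higher than in NI after both injuries at every time. It had 63.7, 79.4 and 84.5 CPM in the 3 NI libraries. At 72 h it had 335, 555 and 480 CPM after HS and 408, 521 and 441 CPM after FT. At 1 week it had 547 and 486 CPM in the 2 HS libraries and 404, 712 and 775 CPM after FT. All 17 injured libraries lay above the 3 NI libraries, and the injuries overlapped at each time. At 2 weeks it had 813, 839 and 720 CPM after HS and 866, 846 and 715 CPM after FT, so that the 6 libraries at 2 weeks lay above all libraries at 72 h. The group means rose from 75.9 ± 10.8 CPM (SD, n = 3) in NI to 791 ± 62.7 CPM (SD, n = 3) at 2 weeks after HS and 809 ± 82.0 CPM (SD, n = 3) at 2 weeks after FT, which is 10.4 and 10.7 times the NI mean. In the order of the 7 group means, NI was the only group whose libraries did not overlap with those of the next group.

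Against NI, the log2 fold change of *Clec7a* was 2.56 (SE 0.23, limma adjusted p = 3.56e-08) at 72 h after HS and 2.58 (SE 0.23, adjusted p = 3.47e-08) after FT. At 1 week it was 2.77 (SE 0.25, adjusted p = 3.77e-07) after HS and 3.00 (SE 0.23, adjusted p = 1.04e-08) after FT, and at 2 weeks 3.38 (SE 0.23, adjusted p = 1.42e-09) and 3.41 (SE 0.23, adjusted p = 9.52e-10). All these values are on the scale of log2(CPM + 0.5), and the 6 comparisons share the 3 NI libraries. Between 72 h and 2 weeks *Clec7a* gained 0.82 after HS (adjusted p = 0.0238) and 0.83 after FT (adjusted p = 0.0314) on the log2 scale, which passes the p threshold but not the 2-fold limit. With every column scaled to the same total the gain after HS was 1.002 (adjusted p = 0.00201) and was called. The changes from 72 h to 1 week (0.20 and 0.42) and from 1 to 2 weeks (0.61 and 0.41) did not pass, with adjusted p of 0.636, 0.314, 0.993 and 0.998.

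**Figure D1:**
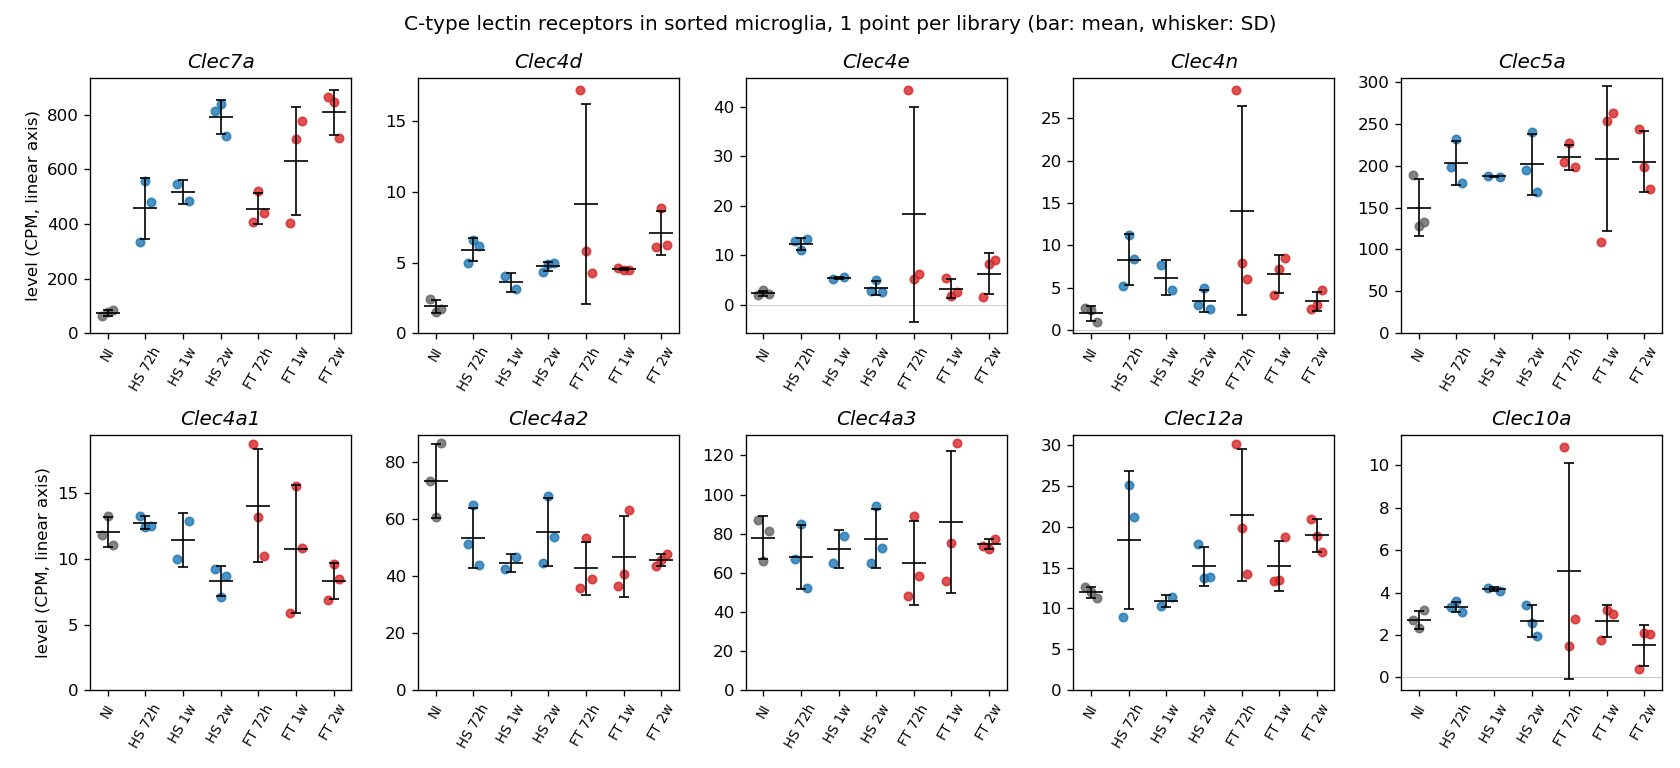
Level of each of the 10 receptors in CPM on linear axes, 1 point per library, in the 7 groups (NI grey, HS blue, FT red), with the group mean as a bar and its SD as a whisker. *Clec7a* lies at 63.7 to 84.5 CPM in NI and above 300 CPM in all injured libraries. The highest point of *Clec4d*, *Clec4e*, *Clec4n*, *Clec4a1*, *Clec10a* and *Clec12a* is the same FT 72 h library.

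Mincle and its neighbours of the Dectin-2 region, the receptors that pair with the Fc receptor gamma chain, were present at a few CPM in NI. *Clec4e*, which binds fungal and mycobacterial glycolipids and a nuclear protein released by dying cells, had 1.97, 2.96 and 2.21 CPM in NI. At 72 h it had 12.8, 11.0 and 13.3 CPM after HS and 43.4, 5.26 and 6.32 CPM after FT. All 6 libraries at 72 h lay above NI, and FT replicate 1 had more than 3 times the level of any other library. *Clec4e* had 5.31 and 5.65 CPM at 1 week and 2.81, 5.13 and 2.54 CPM at 2 weeks after HS. After FT it had 5.48, 1.78 and 2.60 CPM at 1 week and 1.59, 8.27 and 9.16 CPM at 2 weeks. At these later times 1 library after FT lay below NI at each time and the groups overlapped, except that both HS 1 week libraries lay above NI.

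*Clec4n*, the receptor for fungal mannans, had 2.56, 2.32 and 0.96 CPM in NI. It had 5.22, 11.2 and 8.41 CPM at 72 h after HS and 28.3, 7.89 and 6.06 CPM at 72 h after FT, all above NI, with the same FT library highest. At 1 week it had 7.62 and 4.69 CPM after HS and 4.15, 7.20 and 8.52 CPM after FT, still above NI in every library. At 2 weeks it had 2.96, 4.92 and 2.42 CPM after HS and 2.53, 2.96 and 4.66 CPM after FT, and 1 library of each injury was within the NI range.

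*Clec4d*, which forms a complex with Mincle at the cell surface, had 2.44, 1.54 and 1.73 CPM in NI. It had 4.99, 6.60 and 6.15 CPM at 72 h after HS and 17.2, 5.84 and 4.27 CPM at 72 h after FT. At 1 week it had 4.08 and 3.13 CPM after HS and 4.60, 4.49 and 4.49 CPM after FT. All of these lay above NI, with FT 72 h replicate 1 again the highest. At 2 weeks it had 4.37, 4.92 and 4.95 CPM after HS and 6.08, 8.88 and 6.26 CPM after FT. *Clec4d* was therefore above all 3 NI libraries in each of the 17 injured libraries, as *Clec7a* was. The FT libraries at 2 weeks lay above the HS libraries at 2 weeks without overlap. This difference did not pass (0.51 on the log2 scale, limma unadjusted p = 0.138, adjusted p = 0.9998). How many genes of the whole table separate in these ways was not counted.

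At 72 h after HS, 4 of the 10 receptors were called higher than NI (adjusted p under 0.05 and at least 2-fold) and 0 lower, where 13.4% of all genes were called, and at 72 h after FT the same 4 were called, where 12.2% of all genes were called. These were *Clec7a*, *Clec4e*, *Clec4n* and *Clec4d*. *Clec4e* rose by a log2 fold change of 2.17 (SE 0.59, adjusted p = 0.00889) after HS and 2.07 (SE 0.59, adjusted p = 0.0133) after FT. *Clec4n* rose by 1.86 (SE 0.45, adjusted p = 0.00383) and 2.33 (SE 0.45, adjusted p = 0.000623), and *Clec4d* by 1.42 (SE 0.33, adjusted p = 0.00297) and 1.77 (SE 0.33, adjusted p = 0.000483). The median log2 fold change of the 10 receptors was 0.47 after HS and 0.63 after FT, beside -0.11 and -0.09 over all genes. Without FT replicate 1, *Clec4e* after FT fell to 1.14 (adjusted p = 0.113) and was no longer called, while *Clec4n* (1.67, adjusted p = 0.00522) and *Clec4d* (1.21, adjusted p = 0.00230) were, which left 3 receptors called.

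At 1 week *Clec7a* alone was called after HS, where 2.18% of all genes were called, and *Clec7a* with *Clec4n* (1.56, SE 0.45, adjusted p = 0.0364) after FT, where 4.05% were. *Clec4n* after HS had a change of nearly the same size (1.48, SE 0.50) on 2 libraries and did not pass (adjusted p = 0.142), and its call after FT was lost without NI replicate 2 (adjusted p = 0.0720), NI replicate 3 (0.201), FT replicate 2 (0.109) or FT replicate 3 (0.178), and with every column scaled to the same total (1.28, adjusted p = 0.0643). *Clec4d* at 1 week was 0.78 (SE 0.37, adjusted p = 0.384) after HS and 1.08 (SE 0.33, adjusted p = 0.0529) after FT. The value of *Clec4d* after FT was called with 0.1 CPM added (1.23, adjusted p = 0.0383), with only the libraries compared (1.08, adjusted p = 0.0441), with quantile scaling (1.25, adjusted p = 0.0198) and by DESeq2 (1.22, adjusted p = 0.0275). At 2 weeks *Clec7a* alone was called after HS (3.23% of all genes called), and *Clec7a* with *Clec4d* (1.65, SE 0.33, adjusted p = 0.00215) after FT (4.88% of all genes called). *Clec4d* after HS lay at the threshold (1.14, SE 0.33, adjusted p = 0.0501) and was called under 5 alternatives. The 2-week values of *Clec4e* were 0.43 and 0.98 and those of *Clec4n* 0.71 and 0.70 after HS and FT, with adjusted p of 0.801, 0.405, 0.492 and 0.443. No receptor was called lower than NI in any of these 6 comparisons, and the median change of the 10 was 0.44, 0.31, 0.38 and 0.55 in HS and FT at 1 week and HS and FT at 2 weeks, beside 0.02, -0.03, -0.01 and -0.02 over all genes.

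**Figure D2:**
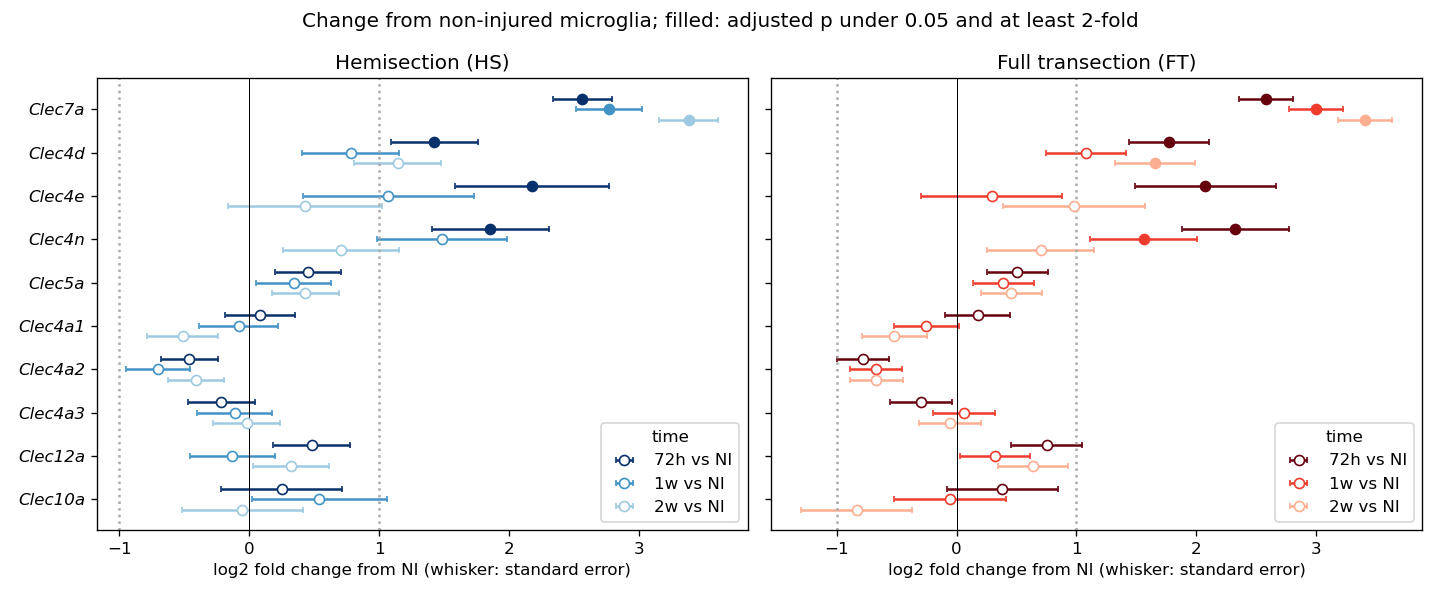
Log2 fold change from NI of the 10 receptors after HS (left) and FT (right) at 72 h, 1 week and 2 weeks, with the standard error as a whisker, dotted lines at the 2-fold limits and filled points for called changes. *Clec7a* lies between 2.56 and 3.41 in all 6 comparisons, the values of *Clec4e* and *Clec4n* are filled at 72 h and, for *Clec4n*, at 1 week after FT, and *Clec4a2* lies below 0 throughout without a filled point.

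The remaining 6 receptors passed in no comparison with NI. *Clec5a* was abundant throughout, between 128 and 189 CPM in NI and between 109 and 263 CPM after injury. Its log2 fold changes were 0.34 to 0.51, with adjusted p of 0.157 to 0.722, and its lowest and highest levels were both in FT 1 week libraries. *Clec12a* had 11.3 to 12.6 CPM in NI and 8.95 to 30.1 CPM after injury. All 9 FT libraries were above the NI range, with log2 fold changes of 0.75, 0.32 and 0.64 at the 3 times that did not pass (adjusted p = 0.0674, 0.652 and 0.236). After HS, 2 of 3 libraries at 72 h, 0 of 2 at 1 week and 3 of 3 at 2 weeks were above it. The HS changes were 0.48, -0.13 and 0.32 (adjusted p = 0.231, 0.939 and 0.670). Without FT 72 h replicate 3 the change at 72 h after FT was 1.004 (adjusted p = 0.0272) and was called. *Clec10a* was near 3 CPM in NI (2.32 to 3.17) and ranged from 0.374 CPM, which is 4 reads, in FT 2 week replicate 1 to 10.9 CPM in FT 72 h replicate 1. The 3 FT libraries at 2 weeks lay below NI, with a change of -0.83 (SE 0.47, adjusted p = 0.355).

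The DCIR family showed no rise. *Clec4a2*, which encodes the inhibitory receptor DCIR itself, had 60.7, 86.7 and 73.3 CPM in NI, and its mean was lower than in NI in all 6 injured groups, at 42.8 to 55.6 CPM. Its log2 fold changes were between -0.41 and -0.78, and the largest, at 72 h after FT (SE 0.22, adjusted p = 0.0122), passed the p threshold and not the 2-fold limit. With every column scaled to the same total this value was -1.25 (adjusted p = 8.27e-05) and with quantile scaling -1.03 (adjusted p = 0.00117), both called. Scaling to the same total also called *Clec4a2* lower after FT at 1 week (-1.02, adjusted p = 0.00203) and 2 weeks (-1.06, adjusted p = 0.00105). *Clec4a3* had 66.0 to 86.9 CPM in NI and 48.0 to 126 CPM after injury, with changes of -0.30 to 0.06. *Clec4a1* had 11.0 to 13.3 CPM in NI. It had changes of 0.08 and 0.18 at 72 h and of -0.51 and -0.52 at 2 weeks after HS and FT (adjusted p = 0.841, 0.669, 0.377 and 0.316), and its 6 libraries at 2 weeks were all below NI. Its highest library was FT 72 h replicate 1 (18.7 CPM), without which the change at 72 h after FT was -0.05 (adjusted p = 0.934).

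Levels of different receptors were compared per kb of exon. In NI, *Clec4a3* was the highest at 58.8 ± 8.12 CPM per kb (SD, n = 3), followed by *Clec5a* (39.0 ± 8.78), *Clec7a* (28.8 ± 4.11) and *Clec4a2* (25.1 ± 4.44), and *Clec4e* was the lowest (0.479 ± 0.104). In all 6 injured groups *Clec7a* was the highest, with 173 to 307 CPM per kb, ahead of *Clec4a3* and *Clec5a*, which changed places between groups within their spread. The level summed over the 10 receptors was 166 ± 15.4 CPM per kb (SD, n = 3) in NI. At 72 h it was 320 ± 59.7 after HS and 325 ± 36.0 after FT, and at 2 weeks 445 ± 43.4 and 449 ± 35.8 (SD, n = 3 each). *Clec7a* made up 17.6% ± 3.54 of this sum in NI, 53.7% ± 5.81 and 53.2% ± 4.06 at 72 h, and 67.5% ± 2.67 and 68.2% ± 1.65 at 2 weeks after HS and FT (SD, n = 3 each). The share of *Clec4a3* was 35.4% in NI and 12.6% to 16.4% after injury, and that of *Clec4a2* 15.2% in NI and 3.50% to 5.73% after injury.

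**Figure D3:**
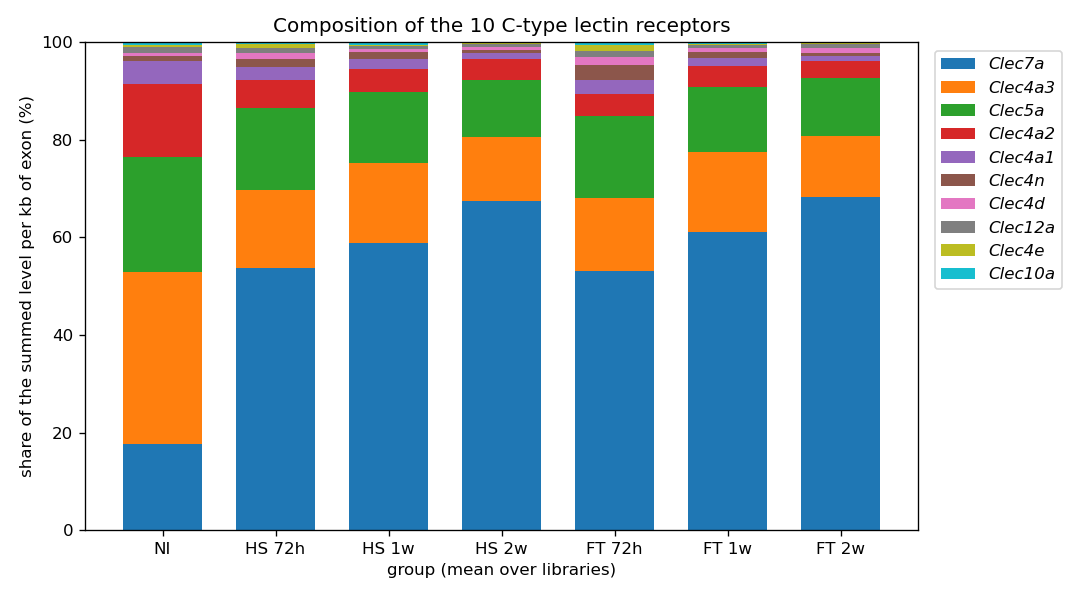
Share of each receptor in the level per kb of exon summed over the 10 receptors (percent, mean over the libraries of a group) in the 7 groups. *Clec7a* fills 17.6% of the NI bar and 53.2% to 68.2% of the injured bars.

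Within a library, the ratio of *Clec7a* to *Clec4a2* shows this shift. Both values had 0.5 CPM added, so the scaling of the library enters slightly. Its log2 value (CPM ratio) was -0.20 to 0.38 in the 3 NI libraries and 2.70 to 4.30 in the 17 injured libraries, with means of 3.07, 3.51 and 3.84 after HS and of 3.41, 3.72 and 4.13 after FT in order of time. Within the Dectin-2 region the balance was described in the same way, with no test, and the added 0.5 CPM weighs more on these low genes. The log2 ratio of *Clec4n* to *Clec4d* was 0.40 ± 0.33 at 72 h and -0.46 ± 0.45 at 2 weeks after HS, and 0.52 ± 0.16 and -0.98 ± 0.54 after FT (SD, n = 3 each), beside -0.03 ± 0.54 in NI. For this pair the 3 libraries at 72 h and the 3 at 2 weeks did not overlap after either injury. The log2 ratio of *Clec4e* to *Clec4d* did not overlap after HS (0.70 to 1.28 at 72 h, -0.84 to 0.06 at 2 weeks). After FT it overlapped (-0.14 to 1.31 at 72 h, -1.65 to 0.52 at 2 weeks). How many pairs of genes in the whole table separate in this way was not counted.

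Changes over time were tested within each injury. From 72 h to 2 weeks after FT, *Clec4n* fell by 1.62 on the log2 scale (SE 0.45, adjusted p = 0.0329), 1 of 10 receptors called where 3.81% of all genes were, and this call was lost without FT 72 h replicate 1 (-0.97, adjusted p = 0.195), FT 2 week replicate 1 (-1.46, adjusted p = 0.111) or FT 2 week replicate 2 (-1.56, adjusted p = 0.101). The matching change of *Clec4n* after HS was -1.15 (SE 0.45, adjusted p = 0.107), and *Clec4e* changed by -1.74 (SE 0.59, adjusted p = 0.0632) after HS and by -1.09 (SE 0.59, adjusted p = 0.321) after FT. No receptor was called from 72 h to 2 weeks after HS (4.74% of all genes), from 72 h to 1 week after HS (6.03%) or FT (3.44%), or from 1 to 2 weeks after HS (0.0119%) or FT (0.0714%). At an unadjusted p under 0.05 these 5 comparisons held 4, 0, 2, 1 and 0 receptors. From 72 h to 1 week after FT, *Clec4e* changed by -1.78 (SE 0.59, adjusted p = 0.0827) and was the 1 receptor called by the edgeR quasi-likelihood test and by DESeq2 on recovered reads, and in the other 4 comparisons both called 0 receptors.

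Lesion severity made no difference that passed for any receptor. FT and HS were compared directly at each time, and limma called 0 of 10 receptors at 72 h, 1 week and 2 weeks, where 0% of all genes were called each time. The count at an unadjusted p under 0.05 was also 0 receptors at each time, with 505, 724 and 438 such genes in the whole table. The edgeR quasi-likelihood test called 0 genes at each time, and DESeq2 called 0, 7 and 1 genes, none of them a receptor. For *Clec7a* the difference of FT from HS was 0.02 (95% interval -0.45 to 0.49), 0.24 (-0.29 to 0.76) and 0.03 (-0.44 to 0.50) on the log2 scale in order of time, and a 2-fold difference lies outside these intervals. The intervals were wider for the low receptors, such as *Clec4e* at 72 h (-0.10, interval -1.33 to 1.13) and 1 week (-0.78, interval -2.15 to 0.59) and *Clec4d* at 2 weeks (0.51, interval -0.18 to 1.20), and a 2-fold difference lies within them. No difference between the injuries in the change over time passed for any receptor. This was read from the interaction of severity with 1 week against 72 h (0 of 10, 0% of all genes) and with 2 weeks against 72 h (0 of 10, 0% of all genes). The low receptors had wide errors in the latter, such as *Clec4e* (0.65, SE 0.83) and *Clec10a* (-0.91, SE 0.66). A 2-fold difference is not excluded for them. No receptor had an unadjusted p under 0.05 in either interaction, and 661 and 435 genes of the table did.

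Markers of other cells were read beside these values. Against NI, the share of all genes called was 13.4% and 12.2% at 72 h after HS and FT. It was 2.18% and 4.05% at 1 week and 3.23% and 4.88% at 2 weeks. All 10 microglial markers were present in every group, with a summed level of 18776 to 37716 CPM per library. Of these *Tmem119* was called lower at 72 h (-1.22 after HS, adjusted p = 0.000258), *P2ry12* lower at 2 weeks after FT (-1.11, adjusted p = 0.0492) and *Fcrls* higher at 72 h (1.61 after FT, adjusted p = 4.99e-05). The 10 monocyte markers had a sum of 65.4 to 72.0 CPM in NI, 133 to 193 CPM at 72 h after HS, and 462, 146 and 137 CPM in FT 72 h replicates 1, 2 and 3. At 1 and 2 weeks the sum was 45.8 to 101 CPM. At 72 h, 4 of the 10 monocyte markers were called higher after HS and 6 after FT, including *S100a4* (2.54 after HS, adjusted p = 8.18e-05) and *Chi3l3* (3.35 after FT, adjusted p = 0.00323), and 0 lower, and no monocyte marker was at 0 in every library of a group. The FT 72 h library with the highest sum is the library with the highest *Clec4d*, *Clec4e*, *Clec4n*, *Clec10a*, *Clec12a* and *Clec4a1*. The summed level of *Clec4d*, *Clec4e* and *Clec4n* was 89.0 CPM in it and 16.7 to 28.8 CPM in the other 5 libraries at 72 h. That sum was 9.90 to 20.1 CPM later and 4.89 to 6.97 CPM in NI. FT 72 h replicate 1 also had the highest sums at 72 h of the dendritic cell, neutrophil and lymphocyte markers. Its dendritic cell markers summed to 381 CPM, beside 159 and 142 CPM in FT 72 h replicates 2 and 3. Its neutrophil markers summed to 64.6 CPM, beside 24.5 and 28.9 CPM. Its lymphocyte markers summed to 7.86 CPM, beside 7.30 and 5.97 CPM. Its microglial markers summed to 26698 CPM, the lowest sum at 72 h. The part of monocytes, dendritic cells, neutrophils or lymphocytes in these values was not tested. At 2 weeks the monocyte sum was 51.1 to 81.6 CPM after HS and 51.3 to 66.9 CPM after FT, with 1 marker called higher and 1 (*F13a1*, -2.28 after FT, adjusted p = 0.000726) lower each. *Clec7a* had its highest group means at 2 weeks, and *Clec4d* was above NI in all 6 libraries of that time. The part of monocytes in the values at 2 weeks was not tested either.

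**Figure D4:**
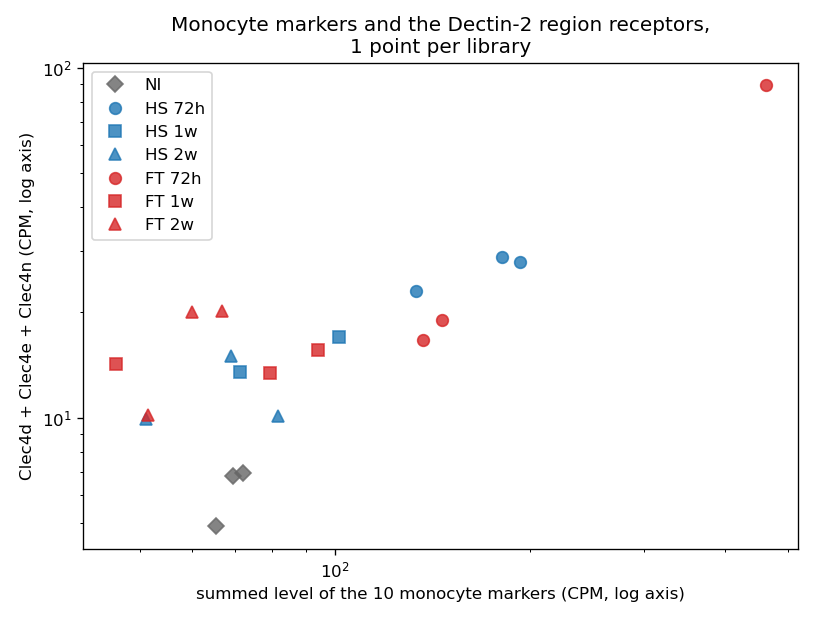
Summed level of *Clec4d*, *Clec4e* and *Clec4n* against the summed level of the 10 monocyte markers, both in CPM on log axes, 1 point per library (NI diamonds, 72 h circles, 1 week squares, 2 weeks triangles, HS blue, FT red). FT 72 h replicate 1 stands apart at 462 and 89.0 CPM, the other libraries at 72 h lie at 133 to 193 and 16.7 to 28.8 CPM, and the libraries at 1 and 2 weeks overlap with NI on the marker axis and lie above it on the receptor axis.

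The other marker lists were read in the same way, beside the same shares of all genes called. The 8 neutrophil markers in the table (*Ly6g* was not among them) summed to 47.5 to 117 CPM in NI and 23.0 to 64.6 CPM at 72 h, with 0 called higher and 1 lower after each injury (*Camp* after HS, *Cxcr2* after FT). At 2 weeks after FT they summed to 16.2, 292 and 93.1 CPM in replicates 1, 2 and 3, where *Clec4e* had 1.59, 8.27 and 9.16 CPM, and their part in those values was not tested. Of the 9 dendritic cell markers, 1 was called higher at 72 h after each injury and 2 at the later times, *Itgax* (3.39 at 2 weeks after HS, adjusted p = 4.3e-08), which activated microglia also express, and *Ifi205* (2.51 at 2 weeks after FT, adjusted p = 0.000343). *H2-Eb1* was called lower at 72 h after HS and at 1 week after FT (-1.53, adjusted p = 0.0143). The 7 markers of border-associated macrophages summed to 177 to 180 CPM in NI, 152 to 226 CPM at 72 h and 75.0 to 95.5 CPM at 2 weeks, when 5 of them were called lower after each injury, among them *Lyve1* (-3.04 after HS, adjusted p = 1.12e-06) and *Cbr2* (-1.99 after FT, adjusted p = 4.33e-05). *Folr2* (3.90 at 1 week after FT, adjusted p = 4.55e-08) and *Siglec1* (1.80 at 2 weeks after FT, adjusted p = 4.98e-05) of the same list were called higher in 5 of the 6 comparisons each. The part of these cells in the receptor values was not tested. The 7 lymphocyte markers summed to 3.28 to 16.8 CPM, with 1 call in the 6 comparisons (*Nkg7*, 1.57 at 72 h after FT, adjusted p = 0.0339).

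Of the adaptors that the activating receptors need, *Tyrobp* and *Fcer1g* were abundant before injury and *Hcst* was not, and their calls differed between comparisons. *Tyrobp* had 1758 ± 290 CPM (SD, n = 3) in NI and 2618 to 3940 CPM as group means after injury. It was called at 72 h after HS (1.13, adjusted p = 0.00233) and after FT at all 3 times (1.07, 1.15 and 1.16, adjusted p = 0.00396, 0.00611 and 0.00451), and not after HS at 1 week (0.58, adjusted p = 0.407) or 2 weeks (0.93, adjusted p = 0.0359, under 2-fold). *Hcst* rose from 12.2 ± 1.13 CPM (SD, n = 3) in NI to 36.1 ± 5.92 CPM (SD, n = 3) at 2 weeks after FT (1.51, SE 0.20, adjusted p = 2.38e-05), and was called in 5 of the 6 comparisons, the exception being HS at 1 week (0.76, adjusted p = 0.0792). *Fcer1g* had 1373 ± 222 CPM (SD, n = 3) in NI and was called at 72 h after FT (1.07, SE 0.27, adjusted p = 0.00521) and in none of the other 5 comparisons. Over the 3 adaptors, 2, 3, 0, 2, 1 and 2 were called higher after HS 72 h, FT 72 h, HS 1 week, FT 1 week, HS 2 weeks and FT 2 weeks, and 0 lower. In the same order, 13.4%, 12.2%, 2.18%, 4.05%, 3.23% and 4.88% of all genes were called.

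Downstream of the adaptors, 22 kinases and mediators were read. At 72 h 2 of them were called after HS and 2 after FT, where 13.4% and 12.2% of all genes were. In each later comparison with NI 1 was called. There 2.18% and 4.05% of all genes were called at 1 week and 3.23% and 4.88% at 2 weeks after HS and FT. *Fgr*, a Src family kinase of myeloid cells, was called higher in all 6 comparisons, up to 2.51 (SE 0.27, adjusted p = 1.39e-06) at 2 weeks after FT. *Src* was called lower at 72 h after HS (-1.44, SE 0.22, adjusted p = 6.83e-05) and after FT, and no other gene of the list was called against NI. *Syk* had changes of -0.42 to -0.21 (adjusted p = 0.149 to 0.492) and *Card9* of -0.38 to 0.03 (adjusted p = 0.668 to 0.96). Of the 6 phosphatases 0 were called in any of the 6 comparisons, with at most 1 at an unadjusted p under 0.05, and *Ptpn6* had changes of 0.28 to 0.45 (adjusted p = 0.253 to 0.773).

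Among 45 other C-type lectins in the table (of 58 listed), 4 were called higher and 3 lower at 72 h after HS and 7 and 3 after FT. Of all genes, 13.4% and 12.2% were called there. The counts were 6 and 0, 5 and 2, 6 and 2, and 7 and 2 in HS and FT at 1 week and HS and FT at 2 weeks. In the same order, 2.18%, 4.05%, 3.23% and 4.88% of all genes were called. *Cd72*, an inhibitory lectin of B cells and myeloid cells, had 30.7 ± 7.46 CPM (SD, n = 3) in NI and was called higher in all 6 comparisons, by 3.27 (SE 0.31, adjusted p = 2.35e-07) at 2 weeks after FT. *Cd69*, an early activation antigen, rose by 2.93 (SE 0.52, adjusted p = 0.000655) at 2 weeks after FT. *Mgl2*, the neighbour of *Clec10a* that shares sequence with it, was lower by -2.95 (SE 0.39, adjusted p = 9.21e-06) at 72 h after FT, where *Clec10a* had a change of 0.38 (adjusted p = 0.582). The median change of these 45 lectins lay between -0.10 and 0.09 in the 6 comparisons.

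The genes whose pattern was most like that of a receptor were read from Pearson's r of log2(CPM + 0.5) over all 20 libraries, among 15474 genes, as a description. *Lpl*, the lipoprotein lipase, was most like *Clec7a* (r = 0.99), followed by *Cst7*, which encodes the protease inhibitor cystatin F (0.99), and *Ch25h*, the cholesterol 25-hydroxylase (0.98). Because the 3 NI libraries lie far from the rest for all 4 genes, r was also taken over the 17 injured libraries, where it was 0.93, 0.90 and 0.88. *Clec4e* was most like *Trem1*, another activating receptor of myeloid cells (r = 0.89), *Ltb4r1*, a leukotriene receptor (0.89), and *Cdt1*, a DNA replication factor (0.88). *Clec5a* was most like *Erap1*, an aminopeptidase of the endoplasmic reticulum (0.97), *Asah1*, the acid ceramidase (0.95), and *Ccpg1* (0.94), and these stayed at 0.93 to 0.95 without NI. *Clec4d* was closest to *Gp49a* (0.87), *Crip1* (0.87) and *Msrb1* (0.86), *Clec4n* to *Thbs1*, which encodes thrombospondin 1 (0.87), *AI662270* (0.86) and *LOC100038947* (0.85), and *Clec10a* to *Cd97* (0.80), *Cd209a*, a further C-type lectin (0.78), and *Plbd1* (0.78). *Clec4a1* was closest to *F13a1* (0.80), *Clec4a2* to *Bbs9* (0.80), *Clec4a3* to *Vimp* (0.84) and *Clec12a* to *Apobr* (0.79).

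Between the receptors themselves, r over the 20 libraries was highest for *Clec4d* with *Clec12a* (0.73), which lie in different regions, and for *Clec4e* with *Clec4n* (0.70), *Clec4d* with *Clec4n* (0.69) and *Clec4d* with *Clec4e* (0.69), which are neighbours. The library FT 72 h replicate 1 is the highest point of *Clec4d*, *Clec4e*, *Clec4n* and *Clec12a* alike. *Clec4a2* with *Clec4a3*, also neighbours, had 0.69 over all libraries and 0.81 over the 17 injured ones. The lowest was -0.56, for *Clec4a2* with *Clec4d*, and -0.20 without NI, and the value for *Clec4a2* with *Clec7a* turned from -0.51 over all libraries to 0.37 over the injured ones.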

How the data were processed

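RNA was taken from eGFP-high cells sorted from CX3CR1+/eGFP mouse spinal cord, and the polyadenylated part was sequenced in 20 libraries of 7 groups. The authors trimmed the reads, mapped them to mm10 (GRCm38) with TopHat2 2.0.9, counted reads per gene with HTSeq 0.5.4p3, removed low genes and normalized with edgeR 3.3.6 (versions from the submitters' processing notes). The signal values that the authors deposited are these normalized counts in CPM. They are whole multiples of 1 step per column: 99.989% of 336200 values were whole reads within 0.001 step, which gave the depth and the reads for count tests. A read is worth 0.0330 to 0.292 CPM, which covers counting error only. Strand and batches are not given in the sources used here.

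From there, log2(CPM + 0.5) was fitted with limma 3.58.1 (R 4.3.3, intensity trend, 1 mean per group, all 20 libraries). A gene was called when its change was at least 2-fold and its p, adjusted after Benjamini-Hochberg across the 16810 genes, was under 0.05. The fold understates the change of low genes. Alternatives changed the CPM added (0.1 or 1), the genes (1 CPM or more in 2 or more libraries), the libraries (those compared, or all except 1), the scaling (median of ratios, quantile, 1 total per column), the fold limit (none), the model (a replicate block) and the tool (the quasi-likelihood test of edgeR 4.0.16 or DESeq2 1.42.0, run on the recovered reads). The fits were tested on simulated data.

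The 10 receptors and all gene lists were chosen with earlier results of these data known, and the motifs after the values were seen. Of each list, up to 3 called genes with the largest change from NI and at least 1 CPM in a group mean are named. Lengths and positions are from GENCODE vM21, promoters from RefSeq. Like genes are the 3 with the highest Pearson's r among genes with a group mean of at least 1 CPM.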

Additional observations from a re-analysis of the deposited data

How the results depend on the processing

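Over the 10 receptors and all comparisons, 2970 alternative values were computed: 2928 gave the same call, 12 lost a call, 30 gained one and no called value reversed, while 191 values with no call changed sign. Each of the 6 calls of *Clec7a* against NI held under every alternative run. At 1 week after HS, 3 receptors in place of 1 were called with only the libraries compared. At 2 weeks after HS, 2 in place of 1 were called with 0.1 CPM added, with the filter on low genes, with only the libraries compared, with quantile scaling and by DESeq2, the gained receptor being *Clec4d* each time. 1 in place of 0 was called from 72 h to 1 week after HS with only the libraries compared. Between 72 h and 2 weeks after HS, 2 in place of 0 were called with only the libraries compared, and 1 with quantile scaling, with 1 total per column and with no fold limit. Between 72 h and 1 week after FT, 1 in place of 0 was called by edgeR and by DESeq2 (*Clec4e*). Between 72 h and 2 weeks after FT, 0 in place of 1 were called with only the libraries compared and with quantile scaling, and 2 with no fold limit and by DESeq2. With 1 library left out, the count at 1 week after FT ran from 1 to 2, at 72 h after FT from 3 to 5, from 72 h to 1 week from 0 to 1 after HS and after FT (1 without HS 72 h replicate 1 and without FT 72 h replicate 2), and from 72 h to 2 weeks after FT from 0 to 2. Leaving out an HS 1 week library leaves 1, which is then assumed to vary like the other groups. The cause of these changes was not tested, other than that fewer libraries enter some fits.

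Scaling every column to 1 total moved the median change of all genes at 72 h from -0.11 to -0.52 after HS and from -0.09 to -0.48 after FT, and the share of called genes that were higher from 67.8% to 16.2% and from 66.6% to 18.5%. Relative to these medians *Clec7a* was 2.67 and 2.58 higher after HS and *Clec4e* 2.28 and 2.25 (log2, deposited scaling and 1 total). In the same order *Clec4n* was 1.96 and 1.95 higher and *Clec4d* 1.53 and 1.52. The call of *Clec4d* after HS was lost only against the fixed 2-fold limit (0.995, adjusted p = 0.0237).

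Replicate numbers did not pair the libraries across the design: of 41 same-numbered pairs in 15 comparisons, 14 had correlated deviations over 0.1, from -0.43 to 0.44. The replicate block left 4 and 4 receptors called at 72 h against NI after HS and FT and changed no other count by over 1.5 times. All pairs were over 0.1 in HS 1 week against HS 72 h (0.17 and 0.31) and HS 2 weeks against HS 1 week (0.14 and 0.22), with 2 pairs each, and in FT against HS at 72 h (0.16, 0.31 and 0.22), the one with 3 pairs. The paired fit of its 6 libraries, added after seeing the data, called 0 receptors and 0 genes. *Clec10a* rests on as few as 4 reads and *Clec4d*, *Clec4e* and *Clec4n* on as few as 12, 17 and 10 reads in a library.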
